A study of Homo sapiens with 24 samples.

Results

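The genes described here are 45 interferon-stimulated genes, chosen by symbol from the 25082 genes of the deposited table. All 45 had a row, and all 45 passed the filter on low values (10 or more normalised counts in 3 or more libraries), so all were tested. They were followed in SET2, an established megakaryoblastic cell line of human origin that grows on signals from the kinase JAK2 and was derived from a myeloproliferative neoplasm. The 24 poly(A) RNA libraries form 8 groups of 3. The persistent lines are SET2 cells kept in BMS911543 (a JAK2-selective inhibitor), CYT387 (momelotinib), INC424 (ruxolitinib) or SAR302503 (fedratinib). Further groups are naive SET2 cells exposed to INC424 for 4 h or for 48 h, to DMSO (the vehicle) for 4 h, and naive cells left untreated. No concentrations were given, so responses were not compared by dose. Each inhibitor is represented by a single persistent line, there is no vehicle group at 48 h, and the replicates are not described as separate cultures, so p-values measure only the spread between these libraries.

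Interferons are secreted antiviral proteins. Type I interferons signal through the receptor chains IFNAR1 and IFNAR2 and the kinases JAK1 and TYK2, and interferon gamma through IFNGR1, IFNGR2, JAK1 and JAK2. The kinases activate transcription factors, among them a complex that contains STAT2 and IRF9. Target genes of type I interferons often carry the interferon-stimulated response element (ISRE), and those of interferon gamma the gamma-activated site (GAS). Many genes with these elements keep a basal level without added interferon, and several are also induced directly by IRF transcription factors or by other signals.

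By role the members are the nucleic acid sensors DDX58 (RIG-I), IFIH1 (MDA5), DDX60 and IFI16, the transcription factors IRF1, IRF7 and IRF9, and the RNA-binding translation inhibitors IFIT1, IFIT2, IFIT3 and IFIT5. OAS1, OAS2 and OAS3 make the second messenger that activates RNase L, and OASL is their relative. ISG15 is a ubiquitin-like modifier, HERC5 its main human ligase, HERC6 a related ligase and USP18 the protease that removes ISG15 and restrains IFNAR2 signalling. IFITM1, IFITM2, IFITM3 and BST2 (tetherin) are membrane restriction factors, and MX1, MX2, GBP1 and GBP2 are GTPases. RSAD2 (viperin), the exonuclease ISG20, TRIM22, SAMD9 and SAMD9L are further antiviral effectors. PARP9, its partner DTX3L, and PARP14 act in ADP-ribosylation. PSMB8 and PSMB9 are immunoproteasome subunits and IFI30 is a lysosomal thiol reductase, all of them acting in antigen processing. IFI6, IFI27, IFI35, IFI44, IFI44L, XAF1 and EPSTI1 are other interferon-induced genes.

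Promoters from 250 bases before to 50 bases after the start were taken from RefSeq on GRCh38.p14 for the 36 members that matched; IRF7, IFIT2, OAS2, OASL, USP18, IFITM2, MX2, GBP2 and TRIM22 did not match. An ISRE core, searched on both strands as GAAA, any 2 bases and GAAA again, stood in 22 of the 36 promoters (61.1%) and in 996 of all 27305 RefSeq promoters of that length (3.65%). A GAS core, searched as TTCNNNGAA, which reads the same on both strands, stood in 10 of the 36 (27.8%) and in 2152 of all promoters (7.88%). Such a match is a description of the letters and not a binding site. The 4 promoters below belong to members on which the results turn, namely IFIT1 (higher) and BST2 (lower) in the persistent lines, and IRF1 and IRF9 (both lower) at 4 h of INC424. Capitals mark the ISRE and GAS cores, which overlap in BST2.
IFIT1, chr10:89392373-89392672, plus strand: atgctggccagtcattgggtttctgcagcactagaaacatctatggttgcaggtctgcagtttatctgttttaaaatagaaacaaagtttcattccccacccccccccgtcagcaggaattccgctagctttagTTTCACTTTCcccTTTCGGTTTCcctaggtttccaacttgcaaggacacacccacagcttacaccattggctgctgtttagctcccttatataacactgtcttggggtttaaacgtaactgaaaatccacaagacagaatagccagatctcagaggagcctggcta
BST2, chr19:17405581-17405880, minus strand: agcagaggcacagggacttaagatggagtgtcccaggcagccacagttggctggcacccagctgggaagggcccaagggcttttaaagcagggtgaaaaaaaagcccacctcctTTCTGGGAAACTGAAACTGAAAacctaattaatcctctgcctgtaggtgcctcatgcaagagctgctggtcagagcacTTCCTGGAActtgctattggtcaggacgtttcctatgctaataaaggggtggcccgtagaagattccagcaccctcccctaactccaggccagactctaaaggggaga
IRF1, chr5:132490724-132491023, minus strand: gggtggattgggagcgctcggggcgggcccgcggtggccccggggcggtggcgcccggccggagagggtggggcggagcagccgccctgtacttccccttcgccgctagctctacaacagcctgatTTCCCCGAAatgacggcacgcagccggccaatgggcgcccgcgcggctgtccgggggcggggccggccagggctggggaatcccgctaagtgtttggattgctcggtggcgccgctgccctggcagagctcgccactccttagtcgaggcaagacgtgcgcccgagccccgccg
IRF9, chr14:24161015-24161314, plus strand: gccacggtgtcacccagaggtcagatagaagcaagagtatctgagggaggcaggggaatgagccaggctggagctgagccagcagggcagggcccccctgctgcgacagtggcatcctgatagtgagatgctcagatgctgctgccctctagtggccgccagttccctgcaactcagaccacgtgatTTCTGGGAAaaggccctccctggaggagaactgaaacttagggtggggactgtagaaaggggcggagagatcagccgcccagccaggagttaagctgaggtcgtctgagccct
IFIT1 holds 2 ISRE cores and no GAS core. BST2 holds 2 ISRE and 2 GAS cores, and IRF1 and IRF9 hold 1 GAS core each and no ISRE core by these letters. IFIT1 and BST2 both carry ISRE cores, yet IFIT1 was higher and BST2 lower in 2 of the lines below.

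Reads assigned to genes numbered 21770721 to 36160750 per library. Of 8 genes of megakaryocyte and erythroid identity, 7 were present in all 24 libraries, while PF4 was at 0 in 17. CYT387 persistent library 2 stood apart. All 10 squamous epithelial markers were highest in it, at 0.477% of its reads. The other 23 libraries held at most 0.102%, in SAR302503 persistent library 3. Next were INC424 persistent library 2 (0.0239%) and INC424 48 h library 3 (0.0211%). In CYT387 library 2, 7 of 8 stromal markers were highest (0.0787% against at most 0.00461%), as were all 4 macrophage markers measured (0.0419% against at most 0.000184%). The summed share of the identity genes was lowest there (0.232% against at least 0.306%). The summed share of 7 lymphocyte markers was within the range of the other libraries (0.005% against up to 0.00853%). Of these, 2 were highest in it, namely CD3E (187 normalised counts against at most 49.3) and CD2 (132 against at most 13.2). Both plasmacytoid dendritic markers measured, TCF4 and IL3RA, were highest in it (0.00712% against up to 0.00493%). TCF4 also reached 1440 normalised counts in another library, against 1964 in this one. CLEC4C and LILRA4, also on that list, had no row. Every value of the CYT387 line is therefore given with its library 2, and the members whose calls against naive or DMSO cells change without it are named. Since all groups share 1 estimate of the spread, it also lowers the count of called genes between groups to which it does not belong.

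**Figure D1:**
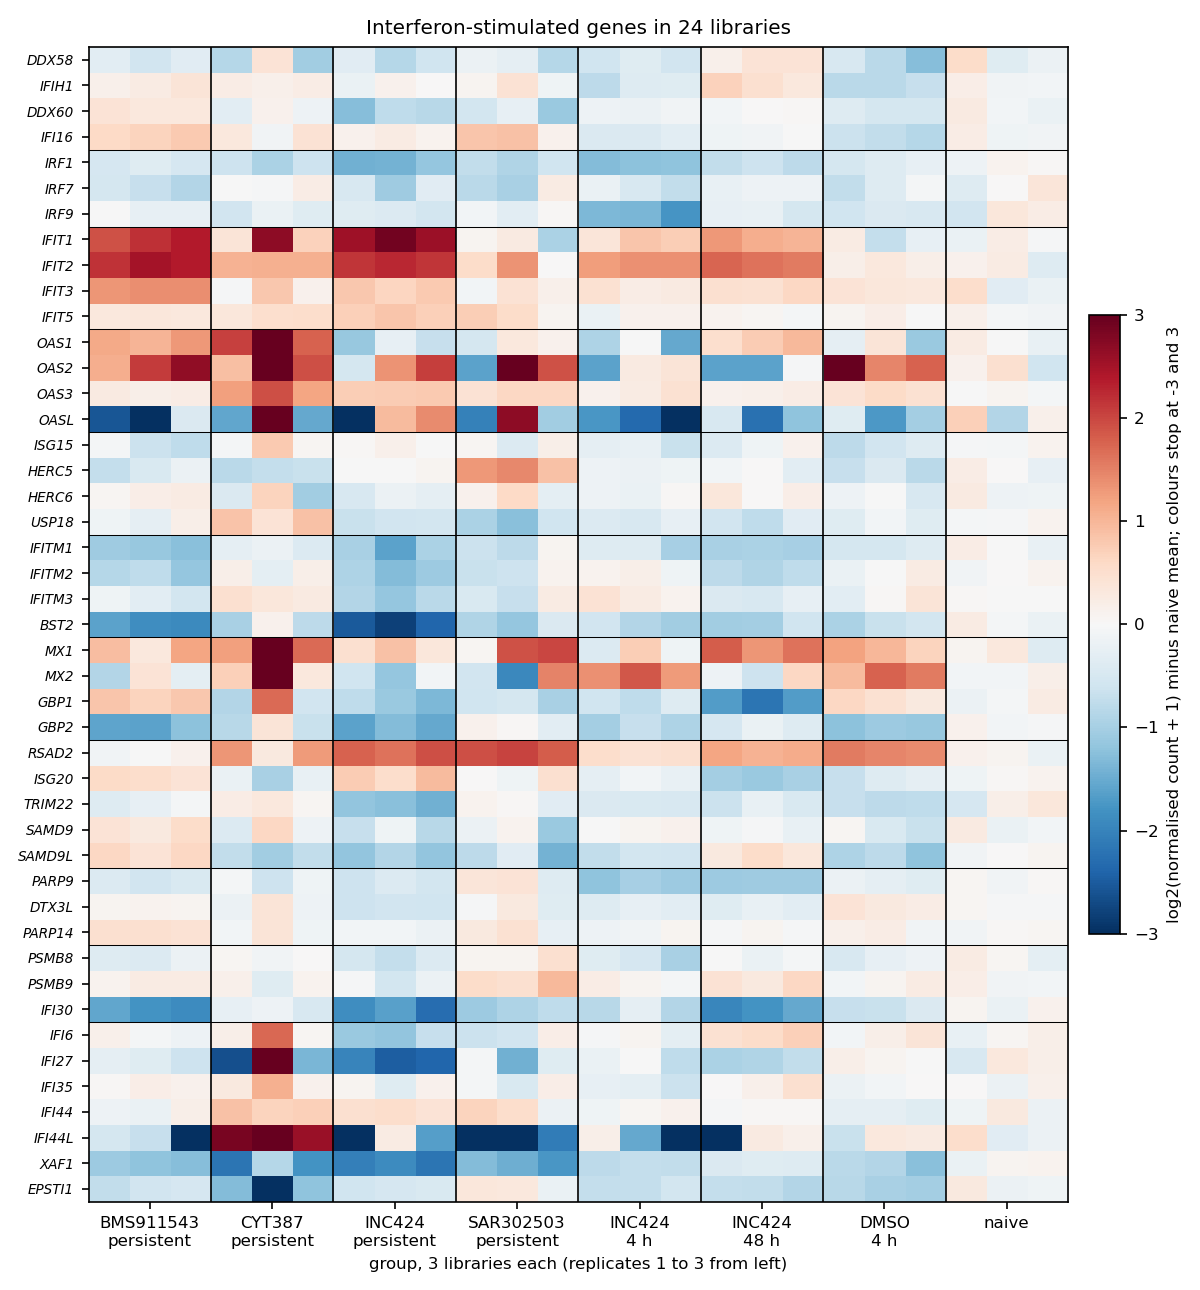
Level of each of the 45 members (rows, by role) in each of the 24 libraries (columns, by group), as log2(normalised count + 1) minus the mean of the naive libraries, with colours stopping at -3 and 3. The IFIT rows are red in the BMS911543 and INC424 persistent lines, the BST2 row is darkest blue in the INC424 line, and library 2 of the CYT387 line stands out in OAS1, OAS2, OASL, MX1, MX2 and IFI27.

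The members did not move one way in the persistent lines. A gene is called higher or lower where limma's adjusted p was under 0.05. In the BMS911543 line 6 of the 45 members were higher and 8 lower than in naive cells, where 10.4% and 14.2% of all 20154 genes tested were called. In the CYT387 line 10 were higher and 5 lower (11.2% and 11.1% of all genes), and 7 and 11 without library 2 (9.61% and 8.75%). In the INC424 line 7 were higher and 16 lower (9.95% and 12.5%), and in the SAR302503 line 7 and 7 (8.70% and 10.6%). The INC424 line thus held the longest list of lower members, 35.6% of the 45, and its median member was at log2 -0.55 against 0.03 for all genes. Median members of the BMS911543, CYT387 and SAR302503 lines were at -0.05, 0.06 and -0.07. In DMSO cells, which were not a persistent line, the median member was at log2 -0.29 against naive cells (0.02 for all genes).

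Line by line, 32 members were called in at least 1 line, 13 in exactly 1 and 13 in none. Only IFIT2 was called higher in all 4 lines, and only IRF1 and XAF1 were called lower in all 4. IFIT1, IFIT5, OAS3 and RSAD2 were higher in 3 lines, and BST2, IFI30 and SAMD9L were lower in 3. HERC5, SAMD9L and USP18 were called in opposite directions in different lines. The 4 comparisons share the naive libraries. For the mean of the 4 lines 7 members were higher and 9 lower (9.79% and 12.0% of all genes), and 9 and 14 without CYT387 library 2 (14.4% and 16.0%).

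**Figure D2:**
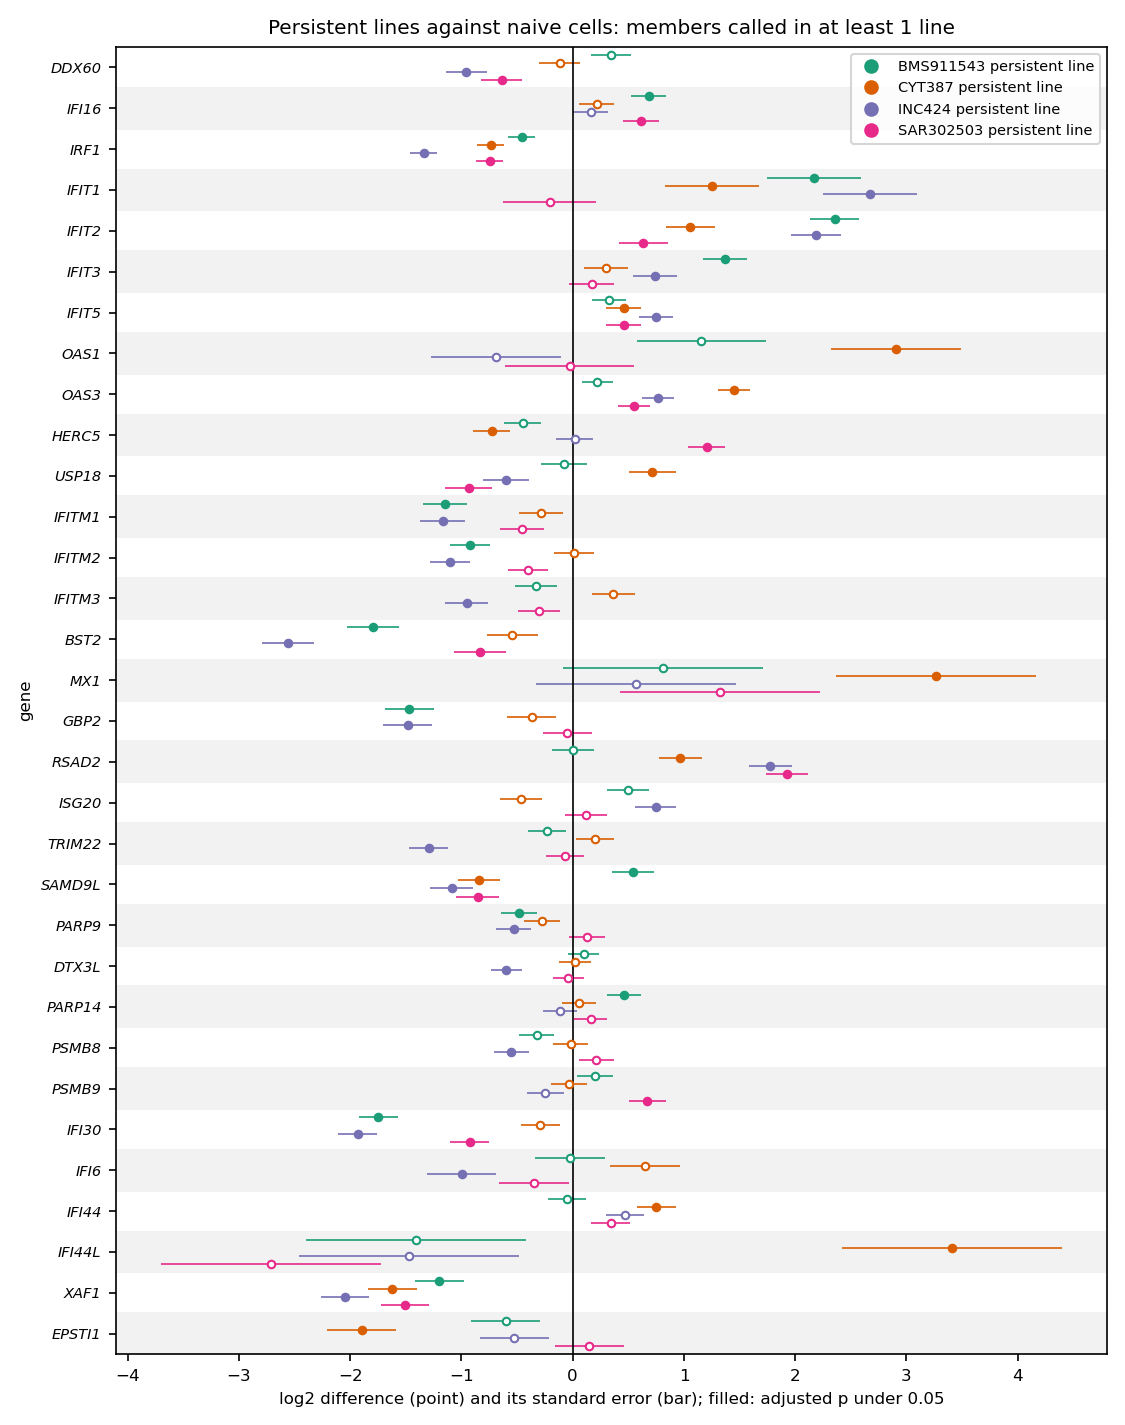
Fitted log2 difference of each persistent line from naive cells (points, with bars of 1 standard error) for the 32 members called in at least 1 line, where filled points have an adjusted p under 0.05. IFIT1 and IFIT2 lie to the right in the BMS911543 and INC424 lines, and BST2, IFI30 and XAF1 lie to the left.

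Naive cells given DMSO for 4 h and untreated naive cells differed in several of these genes. In DMSO 2 members were higher and 11 lower (11.4% and 14.6% of all genes). RSAD2 and OAS3 were the higher ones. GBP2 (log2 -1.16, adjusted p = 0.000461), XAF1 (log2 -0.98), SAMD9L (log2 -0.96), EPSTI1, IFIH1, IFI16, TRIM22, BST2, HERC5, IFI30 and IRF1 were lower. Leaving out 1 library ended the calls of BST2 and IRF1 (adjusted p = 0.111 and 0.106 without DMSO library 1), EPSTI1 (0.109 without naive library 1), IFI30 (0.062 without naive library 3) and OAS3 (0.0633 without DMSO library 2). Members called in the same direction against naive and against DMSO cells were 5 higher and 4 lower in the BMS911543 line (3.93% and 6.11% of all genes), 8 and 3 in the CYT387 line (6.82% and 5.08%, and 5 and 3 members without its library 2, against 6.23% and 3.98%), 4 and 10 in the INC424 line (5.58% and 6.79%) and 3 and 2 in the SAR302503 line (4.55% and 5.65%). The INC424 line's 10 were IRF1, IFITM1, IFITM2, IFITM3, BST2, TRIM22, DTX3L, IFI30, IFI6 and XAF1.

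IFIT1 and IFIT2 gave the largest rises among members called with both controls in the BMS911543 and INC424 lines. IFIT1, which binds viral RNA with an incomplete cap, had 271, 330.2 and 376 normalised counts in the BMS911543 line, 92.4, 465 and 115 in the CYT387 line, 419.6, 534 and 428 in the INC424 line, 74.8, 85.1 and 36.1 in the SAR302503 line and 62.1, 83.0 and 69.3 in naive cells. The BMS911543 and INC424 libraries all lay above all naive libraries, the SAR302503 libraries overlapped them, and library 2 was the highest of the CYT387 line. Against naive cells IFIT1 was higher in the BMS911543 line (log2 difference 2.17 ± 0.42 (SE), adjusted p = 0.000479) and in the INC424 line (log2 difference 2.67 ± 0.42 (SE), adjusted p = 4.67e-05). The CYT387 rise (log2 1.25, adjusted p = 0.036) ended without library 2 (log2 0.53, adjusted p = 0.248), and the SAR302503 line gave -0.21.

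IFIT2, which promotes apoptosis and binds RNA together with IFIT3, had 760.5, 963 and 886 normalised counts in the BMS911543 line and 746, 818 and 754 in the INC424 line. It had 348, 351 and 356 in the CYT387 line, 249, 428 and 170.0 in the SAR302503 line and 185, 202 and 128 in naive cells. Only the SAR302503 libraries overlapped the naive ones. The differences were log2 2.35, 1.06 and 2.19 in the BMS911543, CYT387 and INC424 lines (adjusted p = 3.96e-08, 0.0017 and 1.12e-07), and log2 0.64 in the SAR302503 line (adjusted p = 0.048, and 0.321 with log2 0.28 without its library 2), and the SAR302503 call ended when any 1 of 21 libraries was left out. Against DMSO cells IFIT2 was still higher in the BMS911543, CYT387 and INC424 lines (log2 2.13, 0.84 and 1.97).

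IFIT3, the partner that stabilises IFIT1, was 1231 ± 39.6 normalised counts in the BMS911543 line (SD, n = 3) against 492 ± 168 in naive cells (log2 1.37, adjusted p = 1.78e-05). Its rise in the INC424 line (log2 0.74, adjusted p = 0.00874) ended without naive library 2 (adjusted p = 0.0657) and was log2 0.38 against DMSO cells (adjusted p = 0.156). IFIT5, which binds RNA with a free phosphate end, was 481 ± 21.1 in the INC424 line and 286 ± 28.8 in naive cells (log2 0.75, adjusted p = 0.000972). Its calls in the CYT387 and SAR302503 lines (log2 0.46 and 0.46) ended without naive library 3 (adjusted p = 0.115) and without SAR302503 library 1 (adjusted p = 0.211), and the CYT387 call ended also without its own library 2 (adjusted p = 0.0755). Against DMSO cells these IFIT5 differences were not called (adjusted p = 0.068 in the CYT387 line and 0.0746 in the SAR302503 line).

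**Figure D3:**
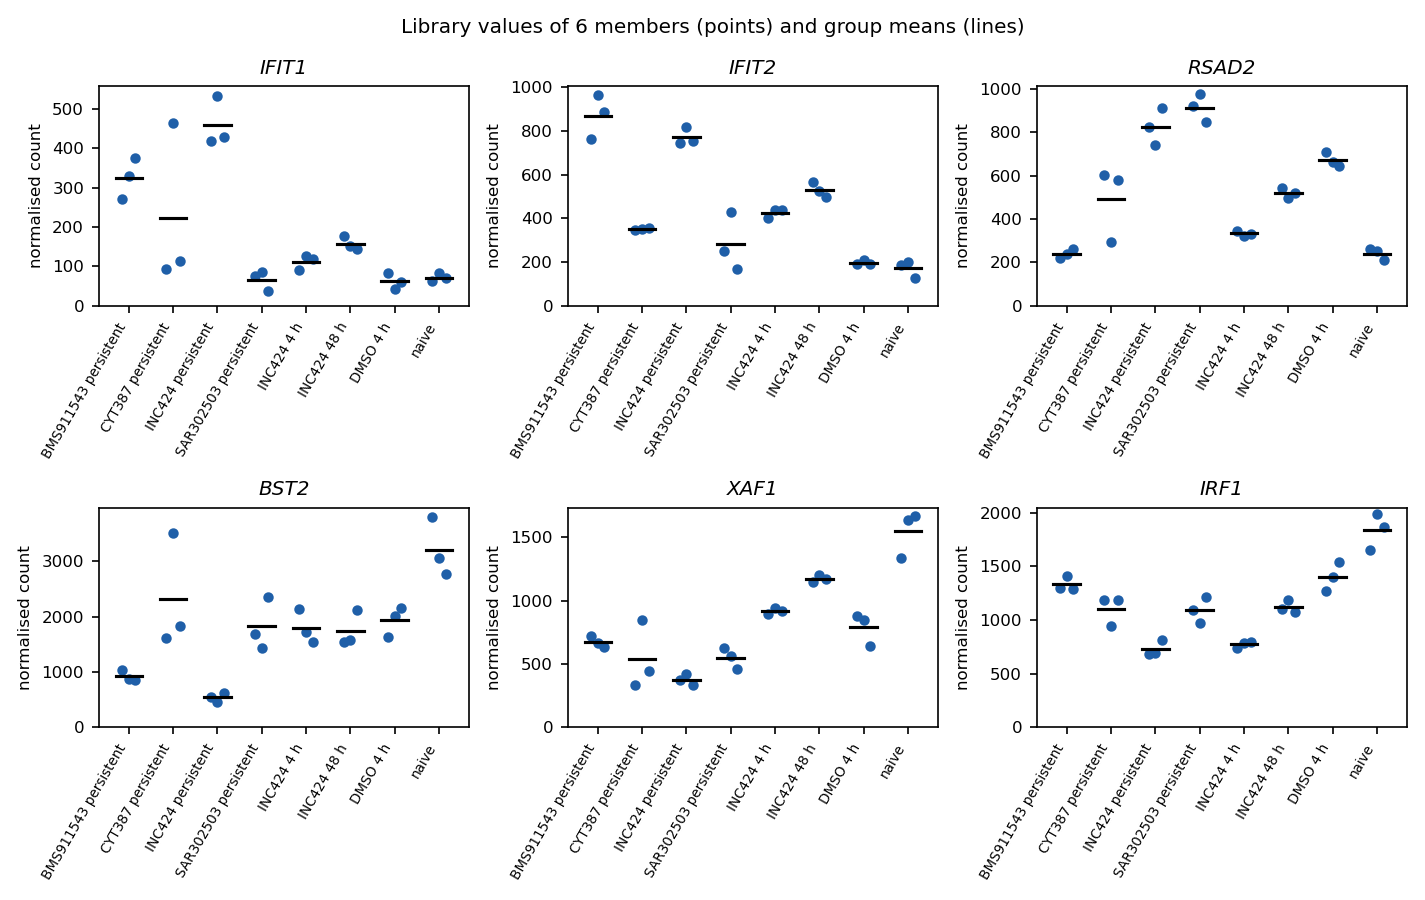
Normalised count of IFIT1, IFIT2, RSAD2, BST2, XAF1 and IRF1 in each library (points) and the mean of each group of 3 (lines). IFIT1 and IFIT2 are highest in the BMS911543 and INC424 persistent lines, BST2, XAF1 and IRF1 are highest in naive cells apart from library 2 of the CYT387 line in BST2, and RSAD2 is lowest in the BMS911543 line and naive cells.

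Membrane restriction factors, XAF1, IRF1 and IFI30 were the leading lower members. BST2, which tethers budding virions to the cell surface, had 1038, 877 and 853 normalised counts in the BMS911543 line, 553, 459.8 and 615 in the INC424 line, 1621, 3511 and 1839 in the CYT387 line, 1691, 1435 and 2361 in the SAR302503 line and 3808, 3067 and 2767 in naive cells. All BMS911543 and INC424 libraries lay below all naive libraries and below all DMSO libraries, which held 1641, 2019.8 and 2164. BST2 was lower in the INC424 line (log2 -2.56, adjusted p = 2.06e-08) and in the BMS911543 line (log2 -1.79, adjusted p = 4.22e-06). The SAR302503 fall (log2 -0.83, adjusted p = 0.014) ended without its library 2 (adjusted p = 0.0763) and was log2 -0.11 against DMSO cells (adjusted p = 0.759). The CYT387 line gave log2 -0.54 (adjusted p = 0.0953), or -0.88 without its library 2 (adjusted p = 0.0021).

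IFITM2, which blocks viral entry in endosomes, was 2214 ± 305 in the BMS911543 line and 1958 ± 252 in the INC424 line against 4187 ± 328 in naive cells (log2 -0.93 and -1.10). IFITM1 was lower in the same lines (log2 -1.15 and -1.17), and IFITM3 in the INC424 line (log2 -0.95). All these differences were also called against DMSO cells. IFITM1, IFITM2 and IFITM3 are neighbouring near-copies and how reads common to them were counted is not given in the sources used here, so the split between them is uncertain.

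IRF1, the factor that drives many gamma-interferon targets, had 678, 689 and 812 normalised counts in the INC424 line, 1297, 1411 and 1288 in the BMS911543 line, 1189, 941 and 1182 in the CYT387 line, 1097, 976 and 1210.0 in the SAR302503 line and 1656, 1983 and 1868 in naive cells. Every persistent library lay below every naive library. The fall was log2 -1.34 in the INC424 line (adjusted p = 1.96e-08), -0.75 in the SAR302503 line, -0.74 in the CYT387 line and -0.46 in the BMS911543 line. Against DMSO cells it was called in the INC424, CYT387 and SAR302503 lines (log2 -0.95, -0.35 and -0.36). The CYT387 call against DMSO cells ended without CYT387 library 2 (log2 -0.24, adjusted p = 0.123). The IRF1 difference from DMSO cells was log2 -0.07 in the BMS911543 line (adjusted p = 0.755). IRF7 and IRF9, the factors of the type I response, were called in no line.

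XAF1, a pro-apoptotic gene, had 369.7, 419.8 and 334 normalised counts in the INC424 line, 623, 559 and 456 in the SAR302503 line, 720.4, 664 and 633 in the BMS911543 line, 336, 849 and 441 in the CYT387 line and 1341, 1639 and 1670.3 in naive cells. All persistent libraries were below the naive ones, but DMSO cells were low too at 877, 844 and 645. Against naive cells XAF1 was lower in the INC424, CYT387, SAR302503 and BMS911543 lines (log2 -2.05, -1.62, -1.51 and -1.20). Against DMSO cells the fall was called in the INC424 line (log2 -1.07) and the CYT387 line (-0.64), and was -0.53 and -0.22 in the SAR302503 and BMS911543 lines (adjusted p = 0.0689 and 0.555). Without CYT387 library 2 the fall in the CYT387 line was log2 -2.00 against naive cells and -1.02 against DMSO cells.

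IFI30, which reduces disulphide bonds of antigens in lysosomes, had 1059, 910.1 and 849 normalised counts in the BMS911543 line, 857, 1013 and 643 in the INC424 line, 1468, 1665 and 1853 in the SAR302503 line and 3312, 2723 and 3438 in naive cells, with no overlap between these lines and naive cells. The falls in the BMS911543 and INC424 lines (log2 -1.75 and -1.93) were also called against DMSO cells. The SAR302503 fall (log2 -0.92) was log2 -0.32 against DMSO cells (adjusted p = 0.171). GBP2, a guanylate-binding GTPase, had 253, 249 and 320.2 in the BMS911543 line, 246, 307 and 261 in the INC424 line, 319.9, 352 and 341 in DMSO cells and 827, 707 and 735 in naive cells, so that DMSO cells were low as well. Its falls of log2 -1.47 and -1.48 against naive cells were -0.31 and -0.32 against DMSO cells (adjusted p = 0.372 and 0.295). TRIM22 fell in the INC424 line with both controls (573 ± 52.4 against 1447 ± 408 in naive cells, log2 -1.30). In bulk RNA, fewer cells that express a gene and less RNA of it per cell cannot be told apart.

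RSAD2, a radical enzyme that makes a chain-terminating nucleotide, read differently against the 2 controls. It had 919.9, 975 and 846 normalised counts in the SAR302503 line, 824, 741 and 913 in the INC424 line, 604, 295 and 581 in the CYT387 line and 221, 239 and 260.2 in the BMS911543 line. DMSO cells had 707, 665 and 644 and naive cells 260.2, 252 and 209. Against naive cells it was higher in the SAR302503, INC424 and CYT387 lines (log2 1.93, 1.78 and 0.97) and nearly level with them in the BMS911543 line (adjusted p = 1). Against DMSO cells the differences were log2 0.44 (adjusted p = 0.08), 0.29 (adjusted p = 0.263) and -0.52 (adjusted p = 0.038), and in the BMS911543 line -1.49 (adjusted p = 3.91e-06). Without CYT387 library 2 the difference of the CYT387 line from DMSO cells was log2 -0.18 and not called (adjusted p = 0.3). CMPK2, the neighbouring interferon-induced kinase gene, was likewise higher in DMSO than in naive cells (log2 1.20).

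OAS1, OAS3 and the GTPase gene MX1 were called higher than in naive cells in the CYT387 line, in part through its library 2. OAS1 had 142, 1031 and 118 normalised counts there and 39.9, 33.4 and 28.5 in naive cells. All 3 CYT387 libraries were above all naive ones, with library 2 far above the other two. OAS1 was higher by log2 2.91 (adjusted p = 0.00114), and by 1.91 without library 2 (adjusted p = 0.00273). OAS3 had 2381, 3857 and 2300.4 in the CYT387 line and 1003, 1063 and 970.2 in naive cells, and was higher with library 2 (log2 1.45) and without it (1.21). OAS3 was also higher in the INC424 and SAR302503 lines (log2 0.76 and 0.55), but against DMSO cells, which had 1420.0 ± 89.1, those were 0.28 and 0.06 (adjusted p = 0.149 and 0.77).

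MX1, a dynamin-like antiviral GTPase, had 27.2, 1390.2 and 38.3 in the CYT387 line against 11.7, 14.0 and 8.15 in naive cells (log2 3.26, and 1.47 with adjusted p = 0.0464 without library 2). The CYT387 mean without library 2 was 32.7, against 34.5 in the SAR302503 line and 35.5 at 48 h of INC424. IFI44L had 56.8, 221 and 47.8 against 10.5, 5.39 and 6.11 in naive cells. Its rise of log2 3.41 missed the threshold without library 2 (log2 2.72, adjusted p = 0.0754), although both remaining libraries were above every library outside the line. IFI44, its neighbour and relative, had 1076, 923 and 957 against 533, 715 and 519.8 in naive cells (log2 0.75, 0.80 without library 2). OAS1, OAS3, MX1, IFI44 and IFI44L were also called against DMSO cells, MX1 only with library 2 included (log2 0.51, adjusted p = 0.46 without it). For IFI44L the difference from DMSO cells was log2 3.44 (adjusted p = 0.00983), and log2 2.75 without library 2 (adjusted p = 0.0421). EPSTI1 had 1066, 286 and 1129 in the CYT387 line and 3221, 2329 and 2379.7 in naive cells, a fall of log2 -1.90, or -1.25 without library 2. Against DMSO cells the EPSTI1 fall was log2 -0.95 (adjusted p = 0.0205), and without library 2 it was log2 -0.31 and not called (adjusted p = 0.108). OAS2, OASL, MX2 and IFI27 were high in library 2 and called in no line.

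Library 2 of the CYT387 line held the highest value of all 24 libraries for 15 of the 45 members (33.3%, against 25% of all genes tested) and the lowest for 1 (2.22%, against 20.3%). It exceeded the mean of libraries 1 and 3 more than 2 times in 15 members (33.3% against 21.2% of all genes), more than 4 times in 9 (20% against 11.3%) and more than 8 times in 5 (11.1% against 6.96%). MX1 had 1390.2 normalised counts in library 2, OAS2 665 and IFI27 1169, where libraries 1 and 3 averaged 32.7, 7.68 and 32.8. IFIT2, HERC5 and IFIH1 were nearly equal in all 3 libraries. Squamous, stromal and macrophage markers were high in the same library, and their part in these values was not tested. Without library 2, 6 further members were called lower in the CYT387 line: the RNA sensor gene DDX58 (log2 -0.96), the GTPase genes GBP1 (-0.73) and GBP2 (-0.75), BST2, HERC6 (-0.74) and IFI27 (-2.01), with adjusted p = 0.0144, 0.0227, 0.00168, 0.0021, 0.0213 and 0.000439 in that order. IFIT1, IFIT5 and IFI44L were then no longer called. Against DMSO cells, leaving out library 2 ended the CYT387 calls of IRF1, EPSTI1, MX1, RSAD2 (log2 -0.18, adjusted p = 0.3) and IFI35 (log2 0.59, adjusted p = 0.0343 with library 2, and log2 0.30, adjusted p = 0.214 without it). It made GBP1 (log2 -1.18, adjusted p = 0.000187), DTX3L (log2 -0.47, adjusted p = 0.00525) and IFI27 (log2 -2.10, adjusted p = 0.000122) called lower.

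**Figure D4:**
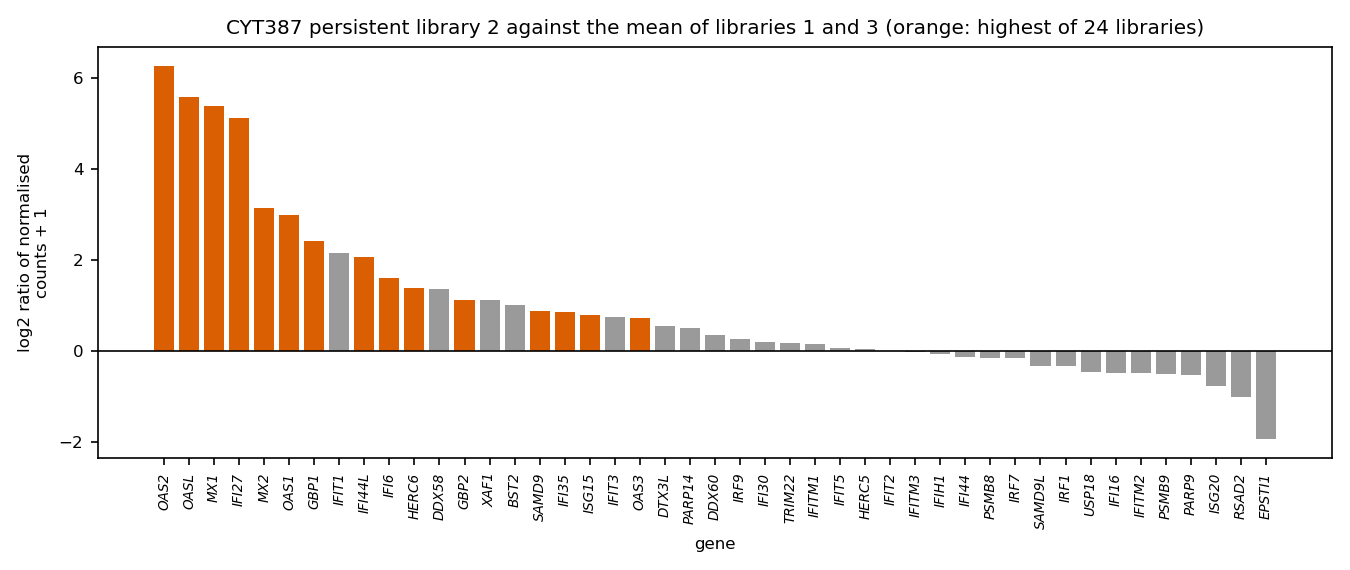
Log2 ratio of the normalised count + 1 in CYT387 persistent library 2 to that in the mean of its libraries 1 and 3, for each of the 45 members, with orange bars where library 2 is the highest of all 24 libraries. The 15 orange bars are led by OAS2, OASL, MX1 and IFI27, and EPSTI1 has the lowest bar.

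Among the lines themselves 33 of the 45 members differed by the F test over the 4 lines, which called 47.1% of all genes. Without CYT387 library 2 it called 34 members and 54.5% of all genes. HERC5, the ligase for ISG15, had 1310.2, 1431 and 966 in the SAR302503 line, 302, 324 and 330.4 in the CYT387 line, 323, 384 and 466 in the BMS911543 line and 521, 523 and 563 in the INC424 line. Every SAR302503 library lay above every library outside the line. The SAR302503 line exceeded naive cells (533 ± 88.4) by log2 1.21 and DMSO cells by 1.85, and the CYT387 line was below naive cells (log2 -0.73) but not called against DMSO cells (log2 -0.08, adjusted p = 0.718).

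SAMD9L, an antiviral gene related to SAMD9, had 1431, 1239 and 1437 normalised counts in the BMS911543 line, 560.1, 450.2 and 565 in the CYT387 line, 408, 508 and 409.6 in the INC424 line, 542, 736 and 347 in the SAR302503 line and 877, 946 and 989.6 in naive cells. The BMS911543 libraries lay above naive cells and all other persistent libraries below them. BMS911543 exceeded the CYT387, INC424 and SAR302503 lines by log2 1.38, 1.63 and 1.40 (adjusted p = 9.86e-06, 2.49e-06 and 1.08e-05). The call against naive cells (log2 0.54) ended without BMS911543 library 3 (adjusted p = 0.117), while against DMSO cells the difference was log2 1.51 (adjusted p = 3.39e-06). The falls of SAMD9L in the CYT387, INC424 and SAR302503 lines (log2 -0.84, -1.09 and -0.85) were not called against DMSO cells (log2 0.12, -0.12 and 0.11).

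USP18, the ISG15 protease, had 284, 208 and 288 in the CYT387 line, 97.5, 105 and 106 in the INC424 line, 80.6, 64.8 and 102 in the SAR302503 line and 149, 152 and 168 in naive cells. CYT387 libraries were above and SAR302503 and INC424 libraries below all naive ones. It was higher in the CYT387 line with library 2 (log2 0.72, ending without naive library 1 at adjusted p = 0.0542) and without it (log2 0.87), and against DMSO cells (log2 0.99). It was lower in the SAR302503 line against both controls (log2 -0.94 and -0.67), and its fall in the INC424 line (log2 -0.60) ended when any 1 of 12 libraries was left out and was not called against DMSO cells (log2 -0.33, adjusted p = 0.256). The modifier ISG15 itself and HERC6 were called in no line.

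Other members were called in 1 or 2 lines. The DNA sensor IFI16 was higher in the BMS911543 and SAR302503 lines (log2 0.68 and 0.61, and 1.43 and 1.36 against DMSO cells), and the SAR302503 call against naive cells ended without its library 1 (adjusted p = 0.056). DDX60 was lower in the INC424 line (log2 -0.96) and the SAR302503 line (-0.64, adjusted p = 0.0996 without SAR302503 library 3). Against DMSO cells DDX60 was called in neither (log2 -0.48, adjusted p = 0.0532 in the INC424 line, and log2 -0.16, adjusted p = 0.549 in the SAR302503 line). ISG20, an exonuclease, was higher in the INC424 line against both controls (log2 0.75 and 1.20), where DTX3L and IFI6 were lower against both (log2 -0.60 and -0.998 against naive cells, the IFI6 call at adjusted p = 0.0836 without naive library 3). PSMB9 was higher in the SAR302503 line (log2 0.67 and 0.59). PARP9 was lower in the BMS911543 and INC424 lines, PARP14 higher in the BMS911543 line and PSMB8 lower in the INC424 line, with log2 differences of -0.48 and -0.53 for PARP9, 0.46 for PARP14 and -0.55 for PSMB8, and each of these calls ended on leaving out 1 library (adjusted p up to 0.115). Against DMSO cells none of them was called (log2 -0.21 and -0.26 for PARP9, 0.37 for PARP14 and -0.26 for PSMB8, with adjusted p = 0.417, 0.238, 0.0914 and 0.228). With all libraries, the members called in no line were DDX58, IFIH1, IRF7, IRF9, OAS2, OASL, ISG15, HERC6, MX2, GBP1, SAMD9, IFI27 and IFI35.

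Between pairs of lines, the CYT387 line was higher than the INC424 line in 19 members and lower in 6, where 13.8% of all genes were called higher and 10.6% lower. BMS911543 exceeded INC424 in 15 members and was below it in 3 (7.79% and 8.73%), and INC424 exceeded SAR302503 in 3 and was below it in 13 (6.08% and 6.65%). BMS911543 exceeded CYT387 in 7 and was below it in 15 (14.3% and 17.1%), and exceeded SAR302503 in 8 and was below it in 10 (11.9% and 13.7%). CYT387 exceeded SAR302503 in 10 and was below it in 5 (13.6% and 12.7%). Leaving out CYT387 library 2 changed these counts to 17 higher and 7 lower for CYT387 against INC424 (14.3% and 9.95% of all genes), 13 higher and 12 lower for BMS911543 against CYT387 (13.1% and 17.3% of all genes), and 7 higher and 8 lower for CYT387 against SAR302503 (14.0% and 12.7% of all genes). Of the 8 group means, the INC424 line held the lowest for 18 of the 45 members, and the CYT387 line the highest for 16, or for 9 without its library 2. IFIT1 went the other way in the INC424 line, exceeding the SAR302503 line by log2 2.88 (adjusted p = 4.14e-05), while BMS911543 and INC424 gave a difference of -0.50 (adjusted p = 0.475).

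After 4 h of INC424, IRF1, IRF9, RSAD2, PARP9 and DTX3L were lower and IFIT2 was higher than with DMSO. With DMSO as the control, 1 of the 45 members was higher and 5 were lower (4.88% and 3.49% of all genes), and all 6 calls remained when any 1 of the 24 libraries was left out. IRF1 had 737, 783 and 797 normalised counts with INC424 and 1266, 1405 and 1536 with DMSO (log2 difference -0.86 ± 0.12 (SE), adjusted p = 6.07e-05). IRF9, the DNA-binding partner of STAT2, had 157, 153 and 116 with INC424 and 263, 297 and 285 with DMSO (log2 difference -0.99 ± 0.20 (SE), adjusted p = 0.00262). The groups did not overlap in either gene, and the IRF9 values were the lowest of all 24 libraries.

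RSAD2 had 346, 321 and 332 with INC424 at 4 h and 707, 665 and 644 with DMSO (log2 -1.01, adjusted p = 0.00132). PARP9 had 1269, 1476 and 1372 and its partner DTX3L 1434, 1577 and 1504 with INC424, against 2582, 2421 and 2275 for PARP9 and 2487, 2293 and 2169.8 for DTX3L with DMSO (log2 -0.82 and -0.62). These genes are neighbours in the genome and fell together, with no overlap between the groups. IFIT2 had 403, 436 and 437 with INC424 and 190.5, 209 and 191 with DMSO (log2 1.11, adjusted p = 0.00239). IFIT1 had 91.1, 126 and 118 with INC424 and 83.8, 42.7 and 60.1 with DMSO, a difference of log2 0.87 that was not called (adjusted p = 0.245).

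At 48 h of INC424 9 members were higher and 7 lower than with 4 h of DMSO (20.0% and 15.6%), close to the shares of all genes called higher and lower (17.6% and 16.4%). With both controls 2 members were higher and 6 lower (5.07% and 6.52% of all genes). Exposure and time in culture cannot be told apart here. IFIT2 had 566, 527 and 497 at 48 h (log2 1.42 against DMSO) and remained called against naive cells (log2 1.64). The RNA sensor IFIH1 had 1118, 967 and 865 at 48 h, 392, 392 and 428 with DMSO and 789, 643 and 651 in naive cells (log2 1.27 and 0.50), and both differences were called. GBP1 had 73.1, 51.4 and 73.1 at 48 h, 365, 329 and 289 with DMSO and 209, 228 and 282 in naive cells, a fall of log2 -2.31 and -1.85. It was the largest fall among the called members, and no 48 h library reached any control library.

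IFI30 (log2 -1.16), PARP9 (-0.81), IFITM2 (-0.82), ISG20 (-0.58) and IRF1 (-0.32) were lower at 48 h than with DMSO and also lower than in naive cells (log2 -1.76, -1.08, -0.82, -1.04 and -0.71). Leaving out DMSO library 3 ended the calls of ISG20 and IRF1 against DMSO (adjusted p = 0.0854 and 0.172). DTX3L was lower and DDX58, IFIT1, SAMD9L, IFI16, GBP2, HERC5 and XAF1 were higher than with DMSO but did not pass in the same direction against naive cells. SAMD9L, for example, had 1143, 1372 and 1192 at 48 h and 494, 546 and 408 with DMSO, and was above all 3 naive libraries at 48 h (log2 1.36 and 0.40). The calls of IFIT1, HERC5 and XAF1 ended without DMSO library 2 (adjusted p = 0.0762) or library 3 (0.083 and 0.18).

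Set directly against 4 h, at 48 h 6 members were higher and 5 lower (7.03% and 7.69% of all genes). IRF9 had 335, 345 and 275 at 48 h and 157, 153 and 116 at 4 h (log2 1.16, adjusted p = 0.000382), and the groups did not overlap. It then differed from DMSO by log2 0.17 (adjusted p = 0.566). IRF1 was higher at 48 h than at 4 h by log2 0.53, SAMD9L by 1.02 and IFIH1 by 1.01. RSAD2 and PSMB8 were also higher, with calls that ended on leaving out 1 library (adjusted p = 0.0855 and 0.183). IFI30, ISG20 and IFITM2 were lower at 48 h (log2 -1.11, -0.85 and -0.86), as were GBP1 and IFITM3, whose calls ended on leaving out 1 library (adjusted p = 0.144 and 0.0995).

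**Figure D5:**
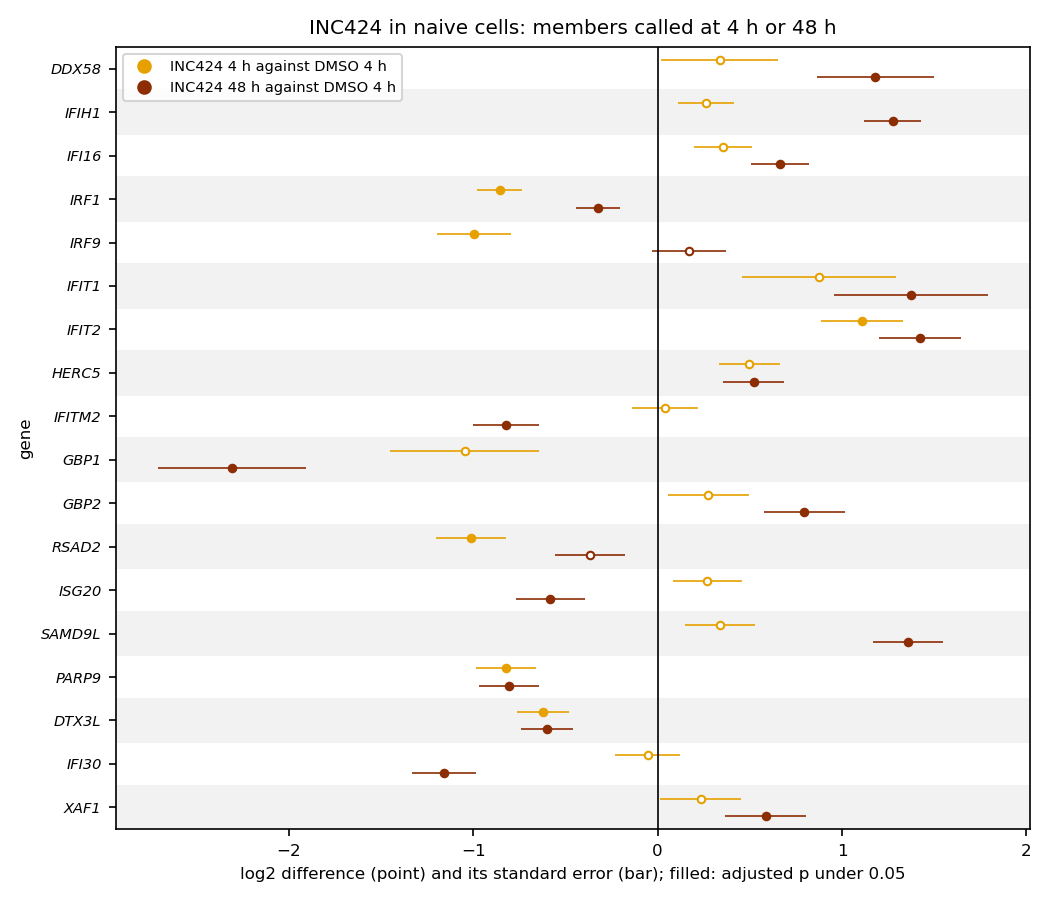
Fitted log2 difference from DMSO at 4 h (points, with bars of 1 standard error) after 4 h and 48 h of INC424 for the members called at either time, where filled points have an adjusted p under 0.05. IRF1, IRF9, RSAD2, PARP9 and DTX3L lie to the left at 4 h, and IRF9 and RSAD2 are not called at 48 h.

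The INC424 persistent line was also set against cells given INC424 for 48 h, which asks how cells kept in the inhibitor differ from cells after a short exposure to it. In the line 7 members were higher and 13 lower (14.5% and 15.4% of all genes). ISG20 had 1079.6, 909 and 1225 normalised counts in the line and 310.3, 293 and 321 at 48 h (log2 1.78, adjusted p = 1.73e-07). BST2 had 553, 459.8 and 615 in the line and 1543, 1581 and 2116 at 48 h (log2 -1.68, adjusted p = 7.93e-06). Neither gene's groups overlapped.

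XAF1 and SAMD9L were also lower in the INC424 line than at 48 h (log2 -1.65 and -1.48), and so were IFI6 (-1.57), GBP2 (-1.12), DDX60 (-0.95), TRIM22 (-0.85), PSMB9 (-0.70) and IRF1 (-0.63). IFIT1 was higher in the line by log2 1.54 (adjusted p = 0.0074), IFIT5 by 0.72 and OAS3 by 0.60. IFI30 was low in both, at 838 ± 186 in the line and 932 ± 136 at 48 h (log2 -0.17, adjusted p = 0.519). The calls of DDX58, IFI44, IFIH1, IFITM3, PARP9, PSMB8 and RSAD2 ended on leaving out 1 library (largest adjusted p between 0.0528 and 0.125).

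The rest of the interferon pathway was read from a separate list of 85 genes, of which 75 had a row and 68 were tested. None of the interferon ligand genes on the list had a row under the symbols searched, so they could not be analysed. Of 6 receptor genes, 4 were called lower in the BMS911543 line, 3 in the CYT387 line, 5 in the INC424 line, 3 in the SAR302503 line and 3 in DMSO cells, all against naive cells. IFNAR1 was 2119 ± 105 in the BMS911543 line, 1728 ± 227 in the CYT387 line, 1607 ± 116 in the INC424 line and 2168 ± 560.3 in the SAR302503 line against 3230.0 ± 414 in naive cells, and was called lower in each (log2 -0.60, -0.90, -1.0 and -0.60). IFNAR2 was called lower in each as well (log2 -0.81, -0.92, -1.43 and -0.86), and in DMSO cells too (log2 -0.51). Both gamma receptor chains were lower in the INC424 line (log2 -0.78 and -1.15).

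STAT2, a transcription factor of the type I response, was higher with INC424 than with DMSO at 4 h (log2 0.47) and at 48 h (0.82). SOCS1, a feedback inhibitor of interferon signalling, was 21.1 ± 8.50 at 4 h and 23.4 ± 10.9 at 48 h against 81.4 ± 15.7 with DMSO (log2 -1.96 and -1.87).

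Set against naive cells, the BMS911543 line had 7 higher (10.3%, against 10.4% of all genes) and 17 lower (25.0%, against 14.2%) of the 68 other pathway genes. The CYT387 line had 6 higher (8.82%, against 11.2% of all genes) and 15 lower (22.1%, against 11.1%), and 7 and 12 without its library 2, where 9.61% and 8.75% of all genes were called. The INC424 line had 2 higher (2.94%, against 9.95% of all genes) and 28 lower (41.2%, against 12.5%), and the SAR302503 line 9 higher (13.2%, against 8.70% of all genes) and 13 lower (19.1%, against 10.6%). DMSO cells had 3 higher (4.41%, against 11.4% of all genes) and 27 lower (39.7%, against 14.6%). TNFSF10, the death ligand TRAIL, was 79.1 ± 31.0 in the INC424 line against 1085 ± 222 in naive cells (log2 -3.83), and 295 ± 20.7 in DMSO cells (log2 -1.86). CIITA, the master regulator of MHC class II, was lower in the INC424 and SAR302503 lines (log2 -3.44 and -3.78) and higher in the CYT387 line (log2 1.46, adjusted p = 7.67e-06, and 1.59 without its library 2), and was log2 0.21 in the BMS911543 line (adjusted p = 0.465). Set against DMSO, 4 h of INC424 gave 8 higher (11.8%, against 4.88% of all genes) and 6 lower (8.82%, against 3.49%), and 48 h gave 20 higher (29.4%, against 17.6% of all genes) and 13 lower (19.1%, against 16.4%). DHX58, a relative of the sensors DDX58 and IFIH1, was higher at both times (log2 0.99 and 2.05), and WARS, a tRNA synthetase induced by interferon gamma, was lower at 48 h (log2 -2.33).

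Neighbouring members did not always move together. IFIT1 and IFIT5 are neighbours, as are IFIT2 and IFIT3. In the BMS911543 line IFIT1 and IFIT5 differed from naive cells by log2 2.17 and 0.33 (adjusted p = 0.137 for IFIT5), and IFIT2 and IFIT3 by 2.35 and 1.37. GBP1 and GBP2 are neighbours too, and at 48 h of INC424 they differed from DMSO in opposite directions (log2 -2.31 and 0.80). Against naive cells both differences at 48 h were negative (log2 -1.85 and -0.36), and that of GBP2 was not called (adjusted p = 0.268). SAMD9 was 452 ± 120.1 in the INC424 line against 652 ± 115 in naive cells (log2 -0.55, adjusted p = 0.163), where its neighbour SAMD9L was lower (log2 -1.09). Against DMSO cells neither SAMD9 nor SAMD9L was called in that line (log2 -0.20 and -0.12, adjusted p = 0.627 and 0.671).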

How the data were processed

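Poly(A) RNA of SET2 cells was sequenced in 24 libraries, and 9 of them were run again or on 2 lanes. The deposited table holds a normalised signal per gene, which is the authors' read count of that gene over a size factor of its library; the submitters' processing notes name BWA 0.7.5.1, HTSeq 0.5.3p3, DESeq 1.10.1, hg19 and GRCh37 without roles. Within 0.01, all values were whole multiples of a step that is constant within a library, and dividing by it recovered the reads (21770721 to 36160750); for 3 libraries that step lay within 0.01 of 1, so there this says little.

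From the table, log2(value + 1) of the 20154 genes with at least 10 in at least 3 libraries was fitted with limma 3.58.1 (R 4.3.3, 8 groups in 1 fit, trended empirical Bayes on 16 residual degrees of freedom). Tests were two-sided with Benjamini-Hochberg adjustment over all genes tested within each comparison and a threshold of 0.05. Differences are on the log2(value + 1) scale, which understates those of low genes, and levels are mean ± SD (n = 3). Alternatives, and edgeR 4.0.16 on the recovered reads, are given in the closing section; the fit was checked on simulated data.

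The members and lists were chosen with earlier results of these data known. Any member may be named. Of the pathway list, receptors, JAK and STAT genes and up to 5 others with the largest called difference in a comparison may be named. Sequences come from RefSeq on another build than the files, so no other coordinates are printed.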

Additional observations from a re-analysis of the deposited data

Results flagged for a closer look

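HERC5, SAMD9L and USP18 were called in opposite directions from naive cells in different persistent lines. The differences between those lines were called too (limma, adjusted p under 0.05). The genes were picked for opposite calls against the same naive libraries in the same fit, so these further calls add no separate support. HERC5 differed by log2 -1.93 between the CYT387 and SAR302503 lines. SAMD9L was higher in the BMS911543 line than in the CYT387 line by log2 1.38, than in the INC424 line by 1.63 and than in the SAR302503 line by 1.40. USP18 was higher in the CYT387 line than in the INC424 line by log2 1.32 and than in the SAR302503 line by 1.65. With DMSO cells as the control, SAMD9L was no longer lower in the CYT387 and SAR302503 lines (log2 0.12 and 0.11). It was not called in the INC424 line either (log2 -0.12, adjusted p = 0.671). HERC5 in the CYT387 line (log2 -0.08, adjusted p = 0.718) and USP18 in the INC424 line (log2 -0.33, adjusted p = 0.256) were also not called. USP18 remained called higher in the CYT387 line and lower in the SAR302503 line (log2 0.99 and -0.67).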

How the results depend on the processing

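Of 148 member differences called across 10 comparisons, 148 and 147 remained called with pseudocounts of 0.5 and 10, 142 without the low value filter, 146 with a filter at 50, 141 with TMM scaling, 146 in edgeR on recovered reads and 141 with a run-again term. With DMSO in place of naive cells 27 of 82 were lost and 7 reversed. These are RSAD2 (log2 -0.52) and SAMD9L (0.12) in the CYT387 line, SAMD9L (0.11) in the SAR302503 line, and GBP2 (0.32), RSAD2 (-0.32), SAMD9L (0.40) and EPSTI1 (0.23) in the mean of the lines. Without CYT387 library 2 the RSAD2 difference in the CYT387 line was log2 -0.18 and not called (adjusted p = 0.3). With naive in place of DMSO cells at 48 h of INC424, IFI16 (log2 -0.085), HERC5 (-0.12), GBP2 (-0.36) and XAF1 (-0.39) reversed. The cause was not tested.

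Leaving out each of the 24 libraries in turn gave 11 to 21 called members in the BMS911543 line, 12 to 19 in the CYT387 line, 20 to 27 in the INC424 line, 10 to 19 in the SAR302503 line, 12 to 23 for their mean, 6 to 9 at 4 h, 12 to 25 at 48 h, 7 to 17 between 48 h and 4 h, 15 to 25 for the INC424 line against 48 h, 8 to 19 for DMSO and 29 to 37 among the lines. No called difference changed sign. The counts were 25 at 48 h and 17 between 48 h and 4 h without CYT387 persistent library 2, 7 between 48 h and 4 h without INC424 48 h library 1, and 8 for DMSO without DMSO library 2.

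Alternatives chosen after seeing the data moved counts further. The 4 libraries richest in squamous markers were CYT387 persistent library 2, SAR302503 persistent library 3, INC424 persistent library 2 and INC424 48 h library 3. Without them, 24 members were called in the BMS911543 line, 25 in the SAR302503 line and 25 for the mean. Called members then numbered 10 at 4 h, 19 between 48 h and 4 h and 22 for DMSO. Among the 15 libraries run once, 7 were called in the SAR302503 line, 5 at 48 h, 10 for the INC424 line against 48 h, 2 for DMSO, and 0 in limma both at 4 h and between 48 h and 4 h. In those last comparisons edgeR on all libraries called 6 and 11. The limma fit had fewer libraries. DMSO library 1, INC424 4 h library 3 and SAR302503 library 2 were the only ones of their groups run once. Calls that involve these groups therefore cannot decide whether the differences hold among libraries run once. DMSO libraries 2 and 3 were run again or on several lanes, and no naive library was.

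Replicate numbers did not pair the libraries, since deviations of same-numbered libraries correlated at -0.212 to 0.177. With the replicate number as a block the fit called 16 members in the BMS911543 line, 16 in the CYT387 line, 23 in the INC424 line, 14 in the SAR302503 line, 16 for their mean, 6 at 4 h, 17 at 48 h, 12 between 48 h and 4 h, 20 for the INC424 line against 48 h, 14 for DMSO and 33 among the lines. It ended 1 of the 148 calls, IFI44 in the INC424 line against 48 h (adjusted p = 0.0526). Depth limits OAS1, OAS2, OASL, MX1, MX2 and IFI44L, which had under 50 normalised counts in most libraries.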
